A study of Danio rerio with 6 samples.

Results

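The nuclear genes of oxidative phosphorylation were examined complex by complex in regenerating zebrafish trunk tissue. Members were chosen by name alone from the deposited annotation. A member was any gene outside the mitochondrial chromosome whose name was cyc1 or began with uqcr, atp5, cox followed by a digit from 4 to 8, sdh followed by a letter from a to d, or nduf followed by a, b, c, s or v. The annotation held 104 such names, and 101 of them were among the 22350 genes of the deposited count table. The other 3 (cox4i1l, ndufs8b and ndufa4l2b) were not analysed here. By name, 46 members belonged to complex I, 9 to complex II, 9 to complex III, 17 to complex IV and 20 to complex V. They comprised 88 subunits, 11 assembly factors (names starting ndufaf or sdhaf) and 2 inhibitor proteins (atp5if1a and atp5if1b), and they lay on 25 chromosomes.

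Wild-type AB zebrafish larvae were transected through the spinal cord at 5 days post fertilization and left for 6 h to recover. They were then kept in 35 µM IWR-1 with 0.25% DMSO, or in 0.25% DMSO alone, until fixation at 8 days post fertilization, which was 3 days after injury. IWR-1 is a small molecule that blocks Wnt signalling by stabilising Axin, a protein that promotes the breakdown of β-catenin. Each group had 3 libraries, numbered 1 to 3 in the labels, and each library was made from tissue around the injury pooled from 20 animals. Both groups were injured and both received DMSO, so the comparison is of IWR-1 with its vehicle after injury, and no uninjured tissue was analysed here.

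In oxidative phosphorylation, complex I (NADH dehydrogenase) and complex II (succinate dehydrogenase) pass electrons to coenzyme Q, complex III passes them on to cytochrome c, and complex IV (cytochrome c oxidase) passes them to oxygen. Complexes I, III and IV pump protons across the inner mitochondrial membrane, and complex V (ATP synthase) uses their return to make ATP. Most subunits are encoded in the nucleus and imported into mitochondria, while a small set is encoded by mitochondrial DNA. Skeletal muscle, a large part of the larval trunk, is rich in these complexes.

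Library totals ran from 11014963 to 15219664 counts, and the members took 0.553, 0.666 and 0.642% of the counts in IWR-1 libraries 1, 2 and 3, against 0.687, 0.750 and 0.761% in DMSO libraries 1, 2 and 3. Markers of trunk tissue were detected in all 6 libraries, with lowest levels, as scaled counts (CPM, the count relative to the library's scaled total), of 17054 for the muscle actin gene actc1b, 596 for the glial gene gfap, 60.0 for the neuronal gene elavl3 and 1061 for the skin keratin gene krt4. Genes transcribed from the mitochondrial chromosome, rRNA included, took 9.22, 9.69 and 12.7% of counts in IWR-1 libraries 1, 2 and 3, against 7.08, 6.32 and 10.4% in DMSO libraries 1, 2 and 3. All 6 libraries entered every test, and libraries of one group differed by more than counting noise in each pair (chi-square of at least 8.18 per degree of freedom).

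Nuclear oxidative phosphorylation genes stood, as a set, slightly lower in IWR-1 tissue than in DMSO tissue, with small differences per gene. Of the 99 members with enough counts to be tested, 75 had a log2 fold change below 0, against 50.5% of all 19562 tested genes. Their median log2 fold change, IWR-1 over DMSO, was -0.21, against -0.01 for all tested genes, whose lower and upper quartiles were -0.26 and 0.26. The summed level of all members was 5578, 6523 and 6468 CPM in IWR-1 libraries 1, 2 and 3, against 6660, 7785 and 7644 CPM in DMSO libraries 1, 2 and 3. All 3 IWR-1 libraries were below all 3 DMSO libraries, and the means were 6190 ± 530 CPM in IWR-1 and 7363 ± 613 CPM in DMSO (SD, n = 3 each), a ratio of 0.841. In bulk tissue, fewer cells rich in these complexes and less of this RNA per cell cannot be told apart.

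Few members passed the test one by one. With edgeR at an adjusted p below 0.05, 2 members fell, the complex I assembly factor ndufaf7 and the complex III core gene uqcrc1, while 3.59% of all tested genes were called lower. That share of members was below the share of all genes. No member was called higher, where 3.88% of all genes were. At an unadjusted p below 0.05, 26 members were lower and 4 higher, against 12.5% and 11.6% of all genes. DESeq2 called 5 members lower and 1 higher, where it called 4.45% of all genes lower and 4.84% higher, so its share of members called lower was near that of all genes. Groups did not overlap for 23 members lower in IWR-1, where 15.6% of all genes behaved so, and for 5 members higher in IWR-1, where 14.2% did. The authors' deposited table called 5 members lower (ndufaf7, ndufv1, sdhdb, uqcrc1 and atp5mc1) and 1 higher (cox6b1), against 4.06% and 4.28% of the genes with an adjusted p in that table, again near the share of all genes for the lower calls.

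Libraries of the same number deviated together, and taking the number into the edgeR fit as a replicate block raised the counts. With the replicate block, 21 members fell and 3 rose, where 8.86% of all tested genes were called lower and 8.96% higher. The 21 comprised 8 members of complex I, 2 of complex II, 4 of complex III, 4 of complex IV and 3 of complex V. The 3 that rose were cox6b1 and cox5b2 of complex IV and atp5f1e of complex V. Within replicate number 1, 69 members were lower in IWR-1 than in DMSO, within number 2 it was 63, and within number 3 it was 85. Of all 19562 tested genes, 9812, 9623 and 9983 were lower within numbers 1, 2 and 3. In all 3 numbers 53 members were lower, which is 53.5% of those tested, against 26.5% of all genes. Higher in all 3 were 10 of the 99 members, against 5023 of all 19562 tested genes.

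**Figure D1:**
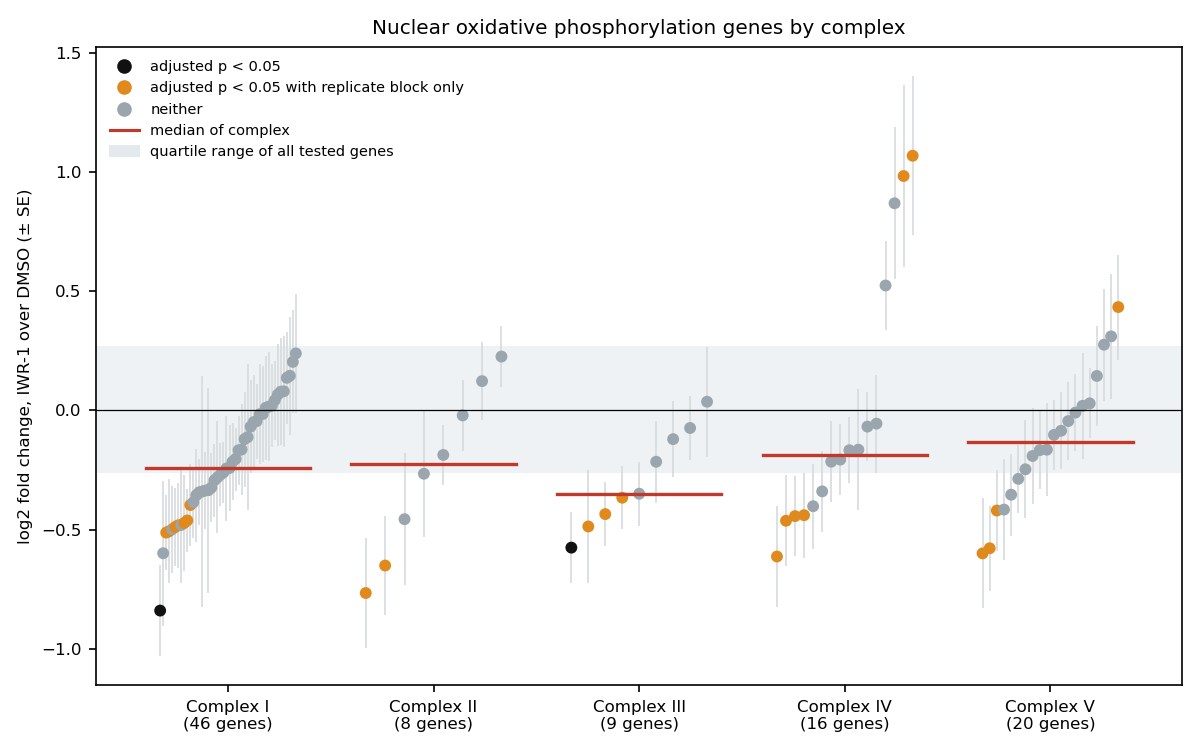
Log2 fold change, IWR-1 over DMSO, of each of the 99 tested members (points, with SE) in order of size within complexes I to V, with each complex's median as a red line and the range between the quartiles of all tested genes shaded. Medians lie between -0.35 for complex III and -0.13 for complex V, only ndufaf7 and uqcrc1 (black) passed at an adjusted p below 0.05, and the highest points are 4 genes of complex IV.

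The size of the set's shift depended on single libraries. Its median was -0.13 without IWR-1 replicate 1, which was the lowest IWR-1 library by summed level, and -0.13 without DMSO replicate 3. It was -0.28 without DMSO replicate 1, and -0.07 with limma voom, whose sample weights of 2.90 for DMSO replicate 1, 0.317 for DMSO replicate 2 and 0.656 for DMSO replicate 3 lean the DMSO group on its lowest library. Of the 99 members, 61 were below 0 without DMSO replicate 3 and 83 without DMSO replicate 1, a count chosen after seeing the data.

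The members did not vary as one block across the DMSO libraries. For 39 members DMSO library 2 was the highest of the 3 DMSO libraries, and for 36 it was the lowest of them. The shares over all tested genes were close (39.7% and 40.8%). In complex III it was the highest for 7 of 9 members, and in the c ring of ATP synthase for 3 of 3. Among the 32 subunits grouped by name as complex I accessory, it was the lowest DMSO library for 16 and the highest DMSO library for 8. The median within-group SD of log2 CPM over members was 0.169 in IWR-1 and 0.280 in DMSO, against 0.184 and 0.255 over all tested genes.

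**Figure D2:**
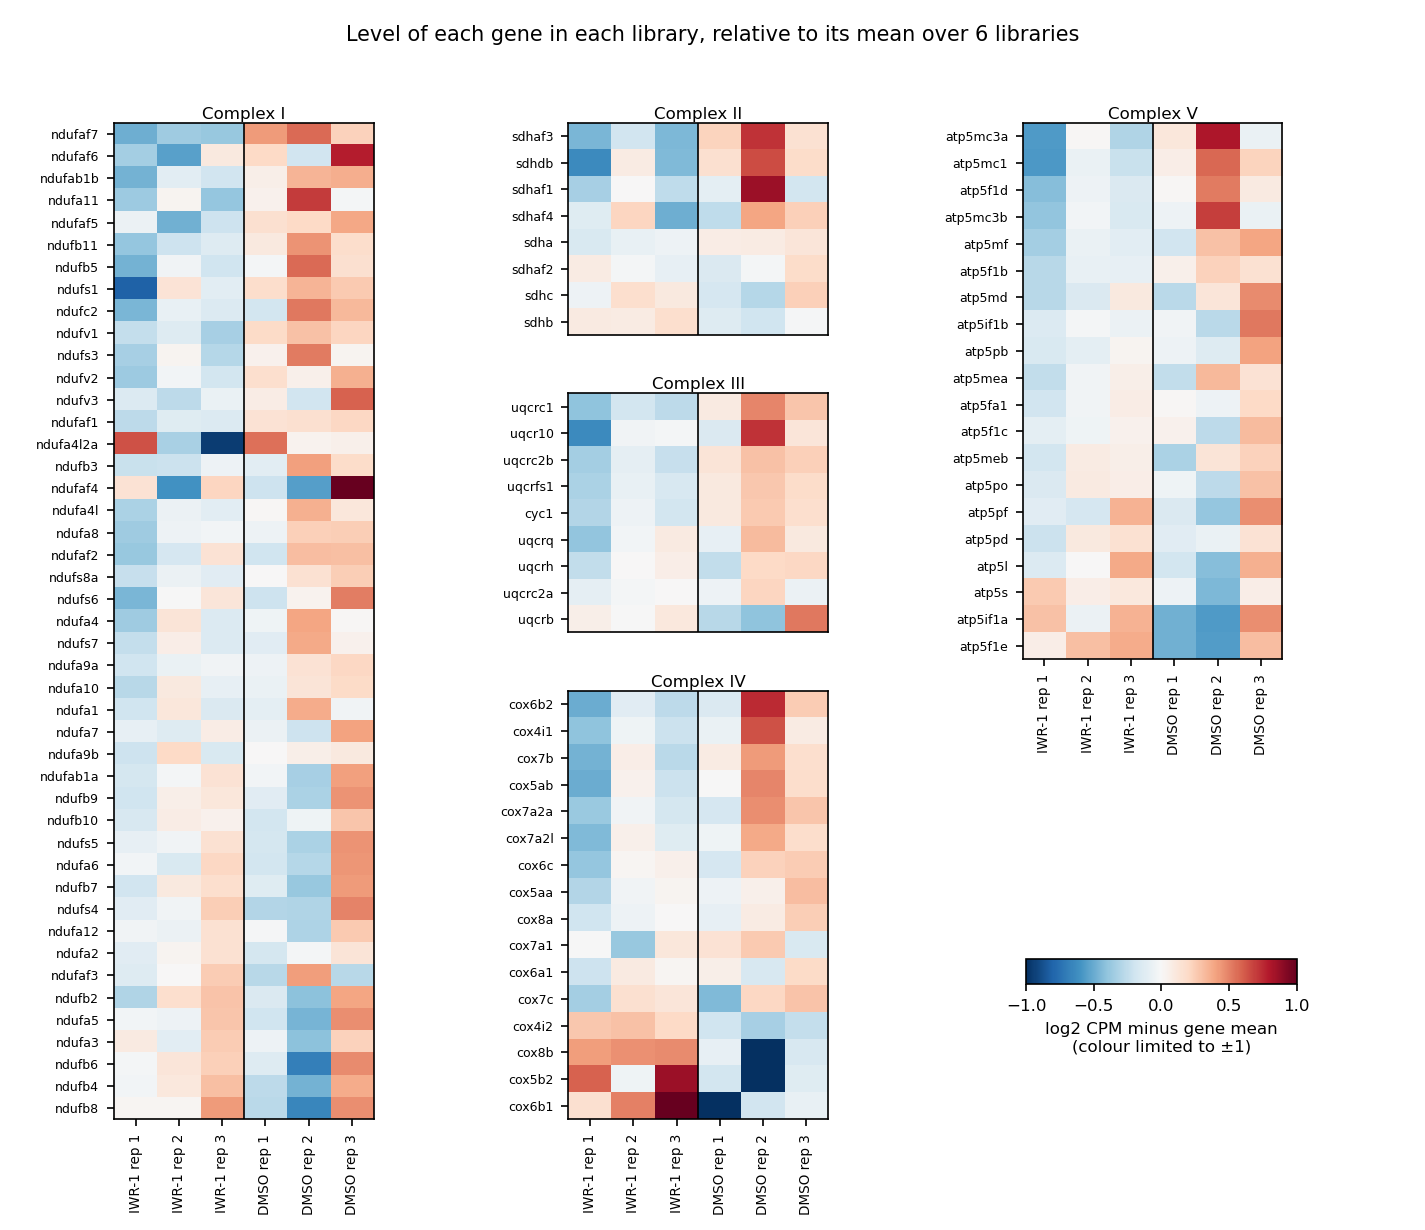
Log2 CPM of the tested members, other than 1 of complex I that is not shown, in each library minus that gene's mean over the 6 libraries, with genes ordered within their complex by fold change and the IWR-1 libraries left of the DMSO libraries. Blue cells (below the mean) fill most of the IWR-1 columns in the upper rows of each complex. Of the 3 DMSO columns, that of library 2 is the highest for 39 genes and the lowest for 36.

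Complex I, the entry point for electrons from NADH, was lower in IWR-1 for 35 of its 46 members, with a median log2 fold change of -0.24 and 1 member called. Its summed level was 1215, 1384 and 1373 CPM in IWR-1 libraries 1, 2 and 3, against 1424, 1589 and 1696 CPM in DMSO libraries 1, 2 and 3, a ratio of 0.843. The 2 sets of libraries did not overlap. Without IWR-1 replicate 1 the median was -0.15.

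The called member was ndufaf7 (chromosome 20, 3277620 to 3288089, GRCz11), which in human cells encodes a methyltransferase needed to assemble complex I. It had 3.87, 4.24 and 4.18 CPM in IWR-1 libraries 1, 2 and 3, against 7.43, 8.19 and 6.47 CPM in DMSO libraries 1, 2 and 3. Every IWR-1 library was below every DMSO library, and the IWR-1 values lay close together. The log2 fold change was -0.84 ± 0.19 (SE), with an edgeR adjusted p of 0.024 and of 0.0069 with the replicate block. The call rested on every IWR-1 library and on DMSO replicate 1: the adjusted p was 0.068, 0.086 and 0.12 without IWR-1 replicates 1, 2 and 3, and 0.088 without DMSO replicate 1. Of the 7 complex I assembly factors, 6 were below 0, with a median of -0.34, and ndufaf7 was the only one called with or without the block.

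The 7 core subunits of complex I, which carry the flavin and iron-sulfur centres, were all below 0, with a median of -0.39. This grouping was made after the values were seen. For 5 of the 7, among them ndufs1, ndufv1 and ndufv2, the groups did not overlap with IWR-1 lower. Over all tested genes that share was 15.6%. With the replicate block, ndufv1 and ndufs3 passed. The flavin-binding subunit ndufv1 (chromosome 19, 9212031 to 9228512) had 182, 196 and 170 CPM in IWR-1 libraries 1, 2 and 3, against 244, 262 and 249 CPM in DMSO libraries 1, 2 and 3. Its groups were well apart, and its log2 fold change was -0.46 ± 0.13 (SE), with an edgeR adjusted p of 0.059 and of 0.015 with the block. The iron-sulfur subunit ndufs1 had 3.16, 6.21 and 5.24 CPM in IWR-1 libraries 1, 2 and 3, against 6.39, 7.16 and 6.80 CPM in DMSO libraries 1, 2 and 3. Most of its difference came from IWR-1 library 1, and it did not pass in either fit (edgeR adjusted p 0.26, and 0.10 with the block).

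Accessory subunits of complex I, which surround the core, were less uniform. Of the 32 grouped here by name, with ndufa4, ndufa4l and ndufa4l2a included, 22 were below 0, with a median of -0.12. Among them, ndufab1b, the mitochondrial acyl carrier protein (chromosome 3, 35535121 to 35541381), had 18, 23.3 and 21.9 CPM in IWR-1 libraries 1, 2 and 3, against 26.1, 31.7 and 32.3 CPM in DMSO libraries 1, 2 and 3. Again no IWR-1 library reached a DMSO library, and the log2 fold change was -0.51 ± 0.16 (SE), with an edgeR adjusted p of 0.078 and of 0.015 with the block. Its paralog ndufab1a had a log2 fold change of -0.07 ± 0.19 (SE). The membrane-arm subunit ndufb5 (chromosome 6, 29402997 to 29410091) had 27.4, 37.0 and 33.1 CPM in IWR-1 libraries 1, 2 and 3, against 37.5, 56.2 and 42.6 CPM in DMSO libraries 1, 2 and 3. The highest IWR-1 library was just below the lowest DMSO library, and the log2 fold change of -0.48 ± 0.18 (SE) passed only with the block (edgeR adjusted p 0.13, and 0.019 with it). Also lower with the block were ndufa11, ndufb11 and ndufc2.

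At the upper end of complex I stood ndufb8, another membrane-arm subunit (chromosome 12, 48469755 to 48477031). It had 39.4, 39.4 and 52.1 CPM in IWR-1 libraries 1, 2 and 3, against 32.1, 24.7 and 53.7 CPM in DMSO libraries 1, 2 and 3. DMSO library 3 was the highest of all 6 and DMSO library 2 the lowest, so the groups overlapped, and the log2 fold change of 0.24 ± 0.25 (SE) did not pass (edgeR adjusted p 0.60). The genes ndufa4, ndufa4l and ndufa4l2a are named for complex I, although human NDUFA4 is now placed in complex IV. Their log2 fold changes were -0.24, -0.32 and -0.34, and none passed in either fit.

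Complex II, which feeds electrons from the citric acid cycle enzyme succinate dehydrogenase, had members on both sides of 0. Of its 8 tested members 6 were below 0, with a median of -0.23, and none was called (edgeR, where 2 were lower at an unadjusted p below 0.05, DESeq2 called sdhdb, and the block called sdhdb and sdhaf3). Without DMSO replicate 2 the median was -0.09. The summed level was 336, 370 and 357 CPM in IWR-1 libraries 1, 2 and 3, against 374, 401 and 401 CPM in DMSO libraries 1, 2 and 3, a ratio of 0.903. The groups were close but did not overlap.

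The membrane anchor sdhdb (chromosome 15, 21684435 to 21692630) had 27.4, 45.3 and 31.5 CPM in IWR-1 libraries 1, 2 and 3, against 47.8, 67.4 and 48.5 CPM in DMSO libraries 1, 2 and 3. Library 2 was the highest in both groups, and within each number the IWR-1 library was lower. Its log2 fold change was -0.65 ± 0.21 (SE), with an edgeR adjusted p of 0.084 and of 0.0018 with the block, the smallest of any member there. The assembly factor sdhaf3 (chromosome 19, 25526354 to 25548630), which helps mature the iron-sulfur subunit, had 3.23, 3.93 and 3.26 CPM in IWR-1 libraries 1, 2 and 3, against 5.27, 7.54 and 5.02 CPM in DMSO libraries 1, 2 and 3. The groups did not overlap, and its log2 fold change was -0.77 ± 0.23 (SE), with an edgeR adjusted p of 0.070 and of 0.019 with the block.

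The iron-sulfur subunit sdhb (chromosome 22, 11395 to 18224) lay the other way, with 69.3, 68.7 and 73.1 CPM in IWR-1 libraries 1, 2 and 3, against 59.3, 56.5 and 64.6 CPM in DMSO libraries 1, 2 and 3. Every IWR-1 library was above every DMSO library, by a small margin, and the log2 fold change of 0.23 ± 0.13 (SE) did not pass (edgeR adjusted p 0.30, and 0.22 with the block). The flavoprotein sdha had 174, 184 and 186 CPM in IWR-1 libraries 1, 2 and 3, against 204, 204 and 211 CPM in DMSO libraries 1, 2 and 3. These groups were also apart, and the log2 fold change of -0.19 ± 0.13 (SE) did not pass (edgeR adjusted p 0.40). The second anchor, sdhc, had a log2 fold change of 0.12 ± 0.16 (SE). The paralog sdhda was too low to test, with 3, 5 and 6 counts in IWR-1 libraries 1, 2 and 3, against 4, 3 and 6 counts in DMSO libraries 1, 2 and 3.

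Complex III, which passes electrons from coenzyme Q to cytochrome c, had a median of -0.35, with 8 of 9 members below 0. Its summed level was 645, 753 and 724 CPM in IWR-1 libraries 1, 2 and 3, against 815, 987 and 899 CPM in DMSO libraries 1, 2 and 3. No IWR-1 library reached the lowest DMSO library, and the ratio was 0.785. The median was -0.20 without DMSO replicate 2 and -0.10 with limma voom. Differences between complexes were not tested.

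The core protein gene uqcrc1 (chromosome 6, 22337081 to 22351939) had 114, 133 and 126 CPM in IWR-1 libraries 1, 2 and 3, against 161, 212 and 183 CPM in DMSO libraries 1, 2 and 3. The highest IWR-1 library was well below the lowest DMSO library. It fell by 0.58 ± 0.15 (SE) on the log2 scale, with an edgeR adjusted p of 0.039 and of 0.0040 with the block. As with ndufaf7, the call was lost without any 1 IWR-1 library (adjusted p 0.12, 0.11 and 0.17 without replicates 1, 2 and 3) and without DMSO replicate 1 (0.064). The other core protein has 2 genes, and they differed: uqcrc2b had a log2 fold change of -0.43 ± 0.13 (SE; edgeR adjusted p 0.074, and 0.020 with the block), while uqcrc2a had -0.07 ± 0.13 (SE).

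The electron carriers of complex III were lower by similar amounts. The Rieske iron-sulfur protein uqcrfs1 had 102, 120 and 114 CPM in IWR-1 libraries 1, 2 and 3, against 136, 153 and 144 CPM in DMSO libraries 1, 2 and 3. Cytochrome c1, cyc1, had 141, 166 and 151 CPM in IWR-1 libraries 1, 2 and 3, against 184, 206 and 193 CPM in DMSO libraries 1, 2 and 3. For both genes the groups did not overlap and within each group library 1 was the lowest. The log2 fold changes were -0.37 ± 0.13 (SE) for uqcrfs1, with an edgeR adjusted p of 0.13 and of 0.046 with the block, and -0.35 ± 0.13 (SE) for cyc1, with 0.14 and 0.055. The small subunit uqcr10 also passed with the block. The highest member was uqcrb, a small subunit near the quinone site, with 16.1, 15.5 and 16.7 CPM in IWR-1 libraries 1, 2 and 3, against 12.8, 11.7 and 22.4 CPM in DMSO libraries 1, 2 and 3. DMSO library 3 stood apart from the other DMSO libraries, the groups overlapped, and the log2 fold change was 0.04 ± 0.23 (SE).

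**Figure D3:**
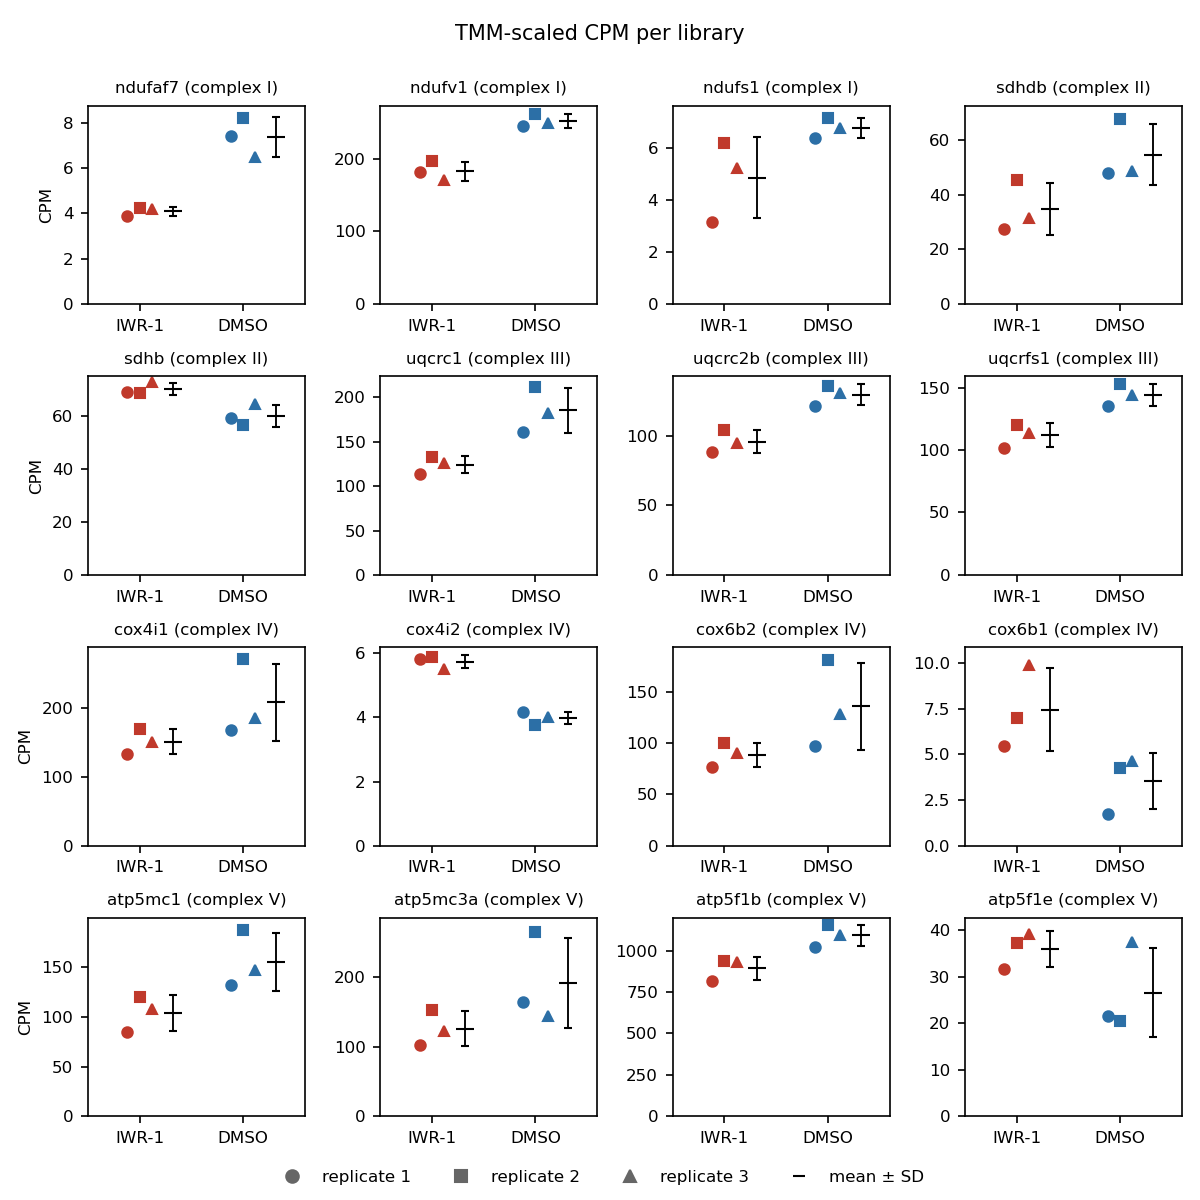
TMM-scaled CPM of 16 members in each library (circle, square and triangle for replicates 1, 2 and 3) with the mean and SD of each group beside the points, IWR-1 left of DMSO. For ndufaf7 the IWR-1 libraries sit between 3.87 and 4.24 CPM, below all DMSO libraries, while for cox6b1 they sit between 5.45 and 9.91 CPM, above all DMSO libraries.

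Complex IV, which reduces oxygen, held the 4 highest log2 fold changes among the members beside a majority below 0. Of its 16 tested members 12 were below 0, with a median of -0.19, and none was called in either direction with edgeR. At an unadjusted p below 0.05 it had 5 lower and 4 higher, DESeq2 called cox6b1 higher, and the block called 4 lower (cox4i1, cox5ab, cox6b2 and cox7b) and 2 higher (cox6b1 and cox5b2). The summed level was 648, 823 and 775 CPM in IWR-1 libraries 1, 2 and 3, against 780, 1063 and 946 CPM in DMSO libraries 1, 2 and 3. IWR-1 library 2 was above DMSO library 1, so the groups overlapped, and the ratio was 0.805. The median was -0.11 without IWR-1 replicate 1 and -0.12 without DMSO replicate 3.

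The subunit 6B, on the face where cytochrome c docks, has a pair of genes that lay in opposite directions. The gene cox6b1 (chromosome 24, 39606053 to 39610585) had 5.45, 6.99 and 9.91 CPM in IWR-1 libraries 1, 2 and 3, against 1.76, 4.24 and 4.62 CPM in DMSO libraries 1, 2 and 3. Every IWR-1 library was above every DMSO library, with wide spread in both groups, and DMSO library 1 rested on 22 counts. The log2 fold change was 1.07 ± 0.33 (SE), with an edgeR adjusted p of 0.080 and of 0.0019 with the block. The gene cox6b2 (chromosome 16, 12504929 to 12512593) had 76.6, 100 and 90.1 CPM in IWR-1 libraries 1, 2 and 3, against 97.7, 181 and 129 CPM in DMSO libraries 1, 2 and 3. IWR-1 library 2 was above DMSO library 1, so the groups overlapped, while within each number IWR-1 was lower. Its log2 fold change was -0.61 ± 0.21 (SE), with an edgeR adjusted p of 0.11 and of 0.0062 with the block.

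Subunit 4, a regulatory subunit, had the same arrangement. The gene cox4i2, whose mammalian counterpart is a lung isoform that responds to low oxygen, had 5.81, 5.89 and 5.52 CPM in IWR-1 libraries 1, 2 and 3, against 4.15, 3.77 and 4.03 CPM in DMSO libraries 1, 2 and 3. There was no overlap, and each group was tight. The log2 fold change of 0.52 ± 0.19 (SE) did not pass (edgeR adjusted p 0.12, and 0.085 with the block). The widespread isoform cox4i1 had 133, 170 and 151 CPM in IWR-1 libraries 1, 2 and 3, against 167, 272 and 186 CPM in DMSO libraries 1, 2 and 3. DMSO library 2 stood above the rest, and the log2 fold change of -0.46 ± 0.19 (SE) passed only with the block (edgeR adjusted p 0.17, and 0.026 with it).

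Other small subunits of complex IV followed both patterns. The subunit gene cox7b (chromosome 21, 37442458 to 37445458) had 49.8, 72.4 and 57.5 CPM in IWR-1 libraries 1, 2 and 3, against 73.3, 93.1 and 77.9 CPM in DMSO libraries 1, 2 and 3. It was the only member of the complex with groups fully apart and IWR-1 lower, with a log2 fold change of -0.44 ± 0.17 (SE) and an edgeR adjusted p of 0.13, or 0.018 with the block. The gene cox8b, named like the heart and muscle isoform of mammals, had 2.44, 2.51 and 2.55 CPM in IWR-1 libraries 1, 2 and 3, against 1.68, 0.753 and 1.58 CPM in DMSO libraries 1, 2 and 3. Its groups did not overlap, and its log2 fold change of 0.87 ± 0.32 (SE) did not pass (edgeR adjusted p 0.13, and 0.061 with the block). The gene cox5b2, for the zinc-binding subunit 5B, had a log2 fold change of 0.98 ± 0.38 (SE), with an edgeR adjusted p of 0.15 and of 0.044 with the block. The remaining panel genes cox5aa (-0.21), cox5ab (-0.44), cox6a1 (-0.07), cox7a1 (-0.16) and cox8a (-0.17) had log2 fold changes below 0, and of these cox5ab passed with the block (adjusted p 0.026). The muscle-type gene cox6a2 was too low to test, with 7, 8 and 9 counts in IWR-1 libraries 1, 2 and 3, against 6, 1 and 5 counts in DMSO libraries 1, 2 and 3.

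The share of one paralog in the counts of its pair is a ratio within a library and does not depend on scaling between libraries. It depends on the lengths of both genes, so only its difference between groups is read here, and it was not tested. The share of cox4i2 in cox4i2 plus cox4i1 was 3.69 ± 0.45% in IWR-1 and 1.97 ± 0.54% in DMSO (SD, n = 3 each). That of cox6b1 in cox6b1 plus cox6b2 was 7.70 ± 1.92% in IWR-1 and 2.50 ± 0.87% in DMSO, and that of cox8b in cox8b plus cox8a was 2.58 ± 0.13% in IWR-1 and 1.26 ± 0.52% in DMSO. In these 3 pairs every IWR-1 library had a higher share of the first-named copy than every DMSO library, as did cox6a2 in cox6a2 plus cox6a1 (0.695% and 0.330% on average, on 9 counts of cox6a2 or fewer in each library).

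Further pairs lay the other way or overlapped. The share of uqcrc2b in uqcrc2b plus uqcrc2a was 48.7 ± 1.67% in IWR-1 and 55.0 ± 1.88% in DMSO. That of ndufab1b in ndufab1b plus ndufab1a was 47.5 ± 2.35% in IWR-1 and 55.6 ± 6.47% in DMSO, and that of atp5if1b in both inhibitor genes was 55.2 ± 4.51% in IWR-1 and 64.2 ± 3.13% in DMSO. In all 3 the groups did not overlap, with IWR-1 lower. The groups overlapped for the other 8 pairs compared, including cox5ab with cox5aa, cox7a1 with cox7a2a, atp5mc3b with atp5mc3a and ndufa9b with ndufa9a.

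**Figure D4:**
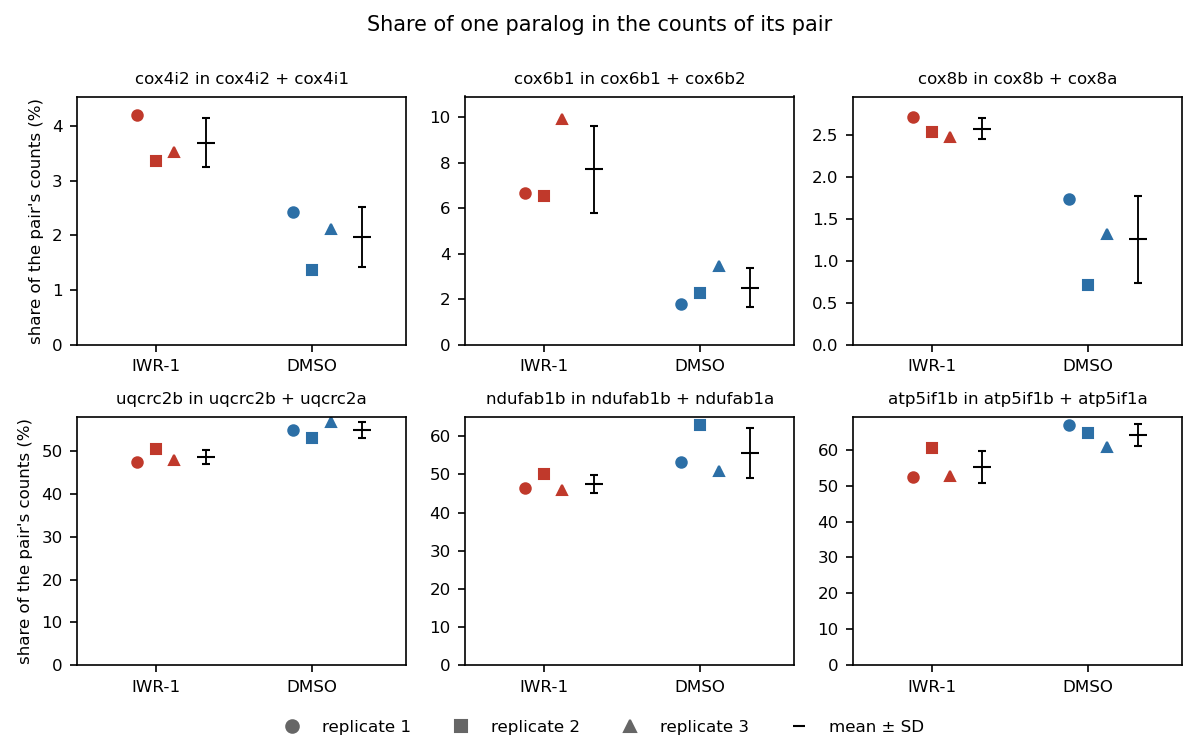
Share of the first-named gene in the summed counts of its pair, in percent, for each library (circle, square and triangle for replicates 1, 2 and 3) with the mean and SD of each group, IWR-1 left of DMSO. In the upper row (cox4i2, cox6b1 and cox8b) all IWR-1 libraries are above all DMSO libraries, and in the lower row (uqcrc2b, ndufab1b and atp5if1b) all are below.

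Complex V, the ATP synthase, had a median of -0.13, with 14 of 20 members below 0. None was called with edgeR, where 3 were lower at an unadjusted p below 0.05, DESeq2 called atp5mc1 lower, and the block called 3 lower (atp5mc1, atp5mc3a and atp5f1d) and 1 higher (atp5f1e). The summed level was 2736, 3193 and 3240 CPM in IWR-1 libraries 1, 2 and 3, against 3267, 3745 and 3702 CPM in DMSO libraries 1, 2 and 3, a ratio of 0.856. The groups did not overlap, though IWR-1 library 3 was close to DMSO library 1. Without DMSO replicate 3 the median log2 fold change was 0.042, so the direction of this median rested on that library.

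The c ring, the rotor that protons turn, was described on its own in a grouping made after the values were seen. Its 3 genes were all below 0, with a median of -0.58. The gene atp5mc1 (chromosome 3, 23599290 to 23604396) had 84.3, 120 and 107 CPM in IWR-1 libraries 1, 2 and 3, against 132, 187 and 147 CPM in DMSO libraries 1, 2 and 3. The groups did not overlap, and the log2 fold change was -0.58 ± 0.18 (SE), with an edgeR adjusted p of 0.076 and of 0.0038 with the block. The gene atp5mc3a (chromosome 9, 2330798 to 2341127) had 102, 153 and 123 CPM in IWR-1 libraries 1, 2 and 3, against 164, 266 and 145 CPM in DMSO libraries 1, 2 and 3. Here IWR-1 library 2 was above DMSO library 3, and the log2 fold change of -0.60 ± 0.23 (SE) did not pass without the block (edgeR adjusted p 0.14, and 0.0079 with it). Without DMSO replicate 3 it was -0.77, with an adjusted p of 0.048. Its paralog atp5mc3b had -0.42 ± 0.21 (SE) and passed in neither fit. The proteins of these genes are near-identical in the mature ring. Whether reads fit more than 1 of the genes, and how such reads were counted, was not examined here.

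The F1 head, which makes ATP, was less shifted, with 4 of its 5 genes below 0 and a median of -0.10. The catalytic β subunit atp5f1b (chromosome 11, 13207898 to 13213059) had 815, 935 and 932 CPM in IWR-1 libraries 1, 2 and 3, against 1024, 1155 and 1093 CPM in DMSO libraries 1, 2 and 3. The groups did not overlap, and the log2 fold change of -0.29 ± 0.14 (SE) did not pass (edgeR adjusted p 0.25, and 0.12 with the block). The α subunit atp5fa1 had a log2 fold change of -0.10 ± 0.15 (SE). The small ε subunit atp5f1e (chromosome 6, 49893488 to 49902140) had 31.7, 37.3 and 39.2 CPM in IWR-1 libraries 1, 2 and 3, against 21.7, 20.5 and 37.6 CPM in DMSO libraries 1, 2 and 3. DMSO library 3 lay with the IWR-1 libraries, and the log2 fold change of 0.43 ± 0.22 (SE) did not pass without the block (edgeR adjusted p 0.26, and 0.042 with it). Without DMSO replicate 3 it was 0.77, with an adjusted p of 0.016, and limma voom called it higher too (adjusted p 0.011). This gene overlaps chmp4ba on the other strand, whose log2 fold change was -0.11 and whose mean level was 32.4 CPM. Of the members, 19 overlap an annotated gene on the other strand, and the strand setting of the counting is not given in the sources used here.

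The inhibitor proteins, which stop the synthase from running backwards, had log2 fold changes of 0.31 ± 0.26 (SE) for atp5if1a and -0.19 ± 0.20 (SE) for atp5if1b, and neither passed with edgeR on all 6 libraries, with or without the block. Without DMSO replicate 3, atp5if1a was called higher (adjusted p 0.039). Leaving assembly factors and inhibitors out changed little: of the 86 tested subunits, 64 were below 0, with a median of -0.18 and 1 called. The 11 assembly factors had 10 below 0 and a median of -0.34.

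The subunits encoded by mitochondrial DNA were not lower alongside. Of the 13, 5 were below 0, with a median of 0.03, and none was called with edgeR, where 1 was lower at an unadjusted p below 0.05. Their summed level was 19674, 23948 and 24868 CPM in IWR-1 libraries 1, 2 and 3, against 20362, 24145 and 25201 CPM in DMSO libraries 1, 2 and 3. The groups overlapped almost fully, with a ratio of 0.983. With the block mt-nd6, a complex I subunit, fell (edgeR adjusted p 0.028) and mt-atp8, a complex V subunit, rose (0.017). Their log2 fold changes without the block were -1.08 and 0.47. The DMSO libraries spread widely for mt-nd6, at 373 ± 82.2 CPM in IWR-1 and 789 ± 575 CPM in DMSO (SD, n = 3 each). Whether nuclear and mitochondrial subunits differed in their response was not tested.

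Genes that work beside the nuclear subunits were also mostly lower. Of 38 tested assembly factors whose names fall outside the rule, 33 were below 0, with a median of -0.37, and tmem126a, a complex I assembly factor in human cells, fell (log2 fold change -1.02 ± 0.19, SE; edgeR adjusted p 0.0091). For 21 of the 38 the groups did not overlap with IWR-1 lower, against 15.6% of all tested genes. The 12 genes of cytochrome c and coenzyme Q synthesis were all below 0, with a median of -0.27. None of them was called with edgeR (4 at an unadjusted p below 0.05), and DESeq2 called 1. The block called cycsb, a cytochrome c gene (edgeR adjusted p 0.0033), and coq3, a methyltransferase of coenzyme Q synthesis (0.025). Their log2 fold changes without the block were -0.62 and -0.64.

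The citric acid cycle and pyruvate dehydrogenase, which supply the electrons, had 17 of 20 genes below 0 and a median of -0.26. Of these idh3b, of isocitrate dehydrogenase, fell (log2 fold change -0.56 ± 0.13, SE; edgeR adjusted p 0.031), as did pdha1a, of pyruvate dehydrogenase (-0.50 ± 0.13, SE; adjusted p 0.042), and the block called 9 lower. For 14 of the 20 the groups did not overlap with IWR-1 lower, against 15.6% of all tested genes. Of 15 genes of ADP/ATP and phosphate carriers, cristae organisation and porins, 12 were below 0, with a median of -0.19, and none was called with edgeR (1 was lower at an unadjusted p below 0.05, and DESeq2 called 0). Of 74 mitochondrial ribosomal proteins, which translate the mitochondrial messages, 66 were below 0, with a median of -0.30, and 5 fell (mrpl3, mrpl17, mrpl19, mrpl44 and mrpl54, with log2 fold changes of -0.59 to -0.99). With the block 17 of the 74 fell. Over all tested genes, edgeR called 3.59% lower, and 8.86% with the block.

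Regulators of mitochondrial biogenesis and the glycolytic enzymes stood nearer to 0. Of 22 biogenesis regulators 14 were below 0, with a median of -0.08, and none was called with edgeR (3 were lower at an unadjusted p below 0.05, and DESeq2 called 0). With the block tfb2m, a factor for mitochondrial transcription, was called lower (edgeR adjusted p 0.026, log2 fold change -0.50 without the block). The log2 fold changes of ppargc1a, a coactivator of these genes, and of esrra, a nuclear receptor that works with it, were -0.38 (edgeR adjusted p 0.185) and -0.47 (0.138). Of 24 glycolytic enzymes 13 were below 0, with a median of -0.06; pfkmb, a phosphofructokinase, fell (-0.81) and gpib, a glucose phosphate isomerase, rose (1.29).

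**Figure D5:**
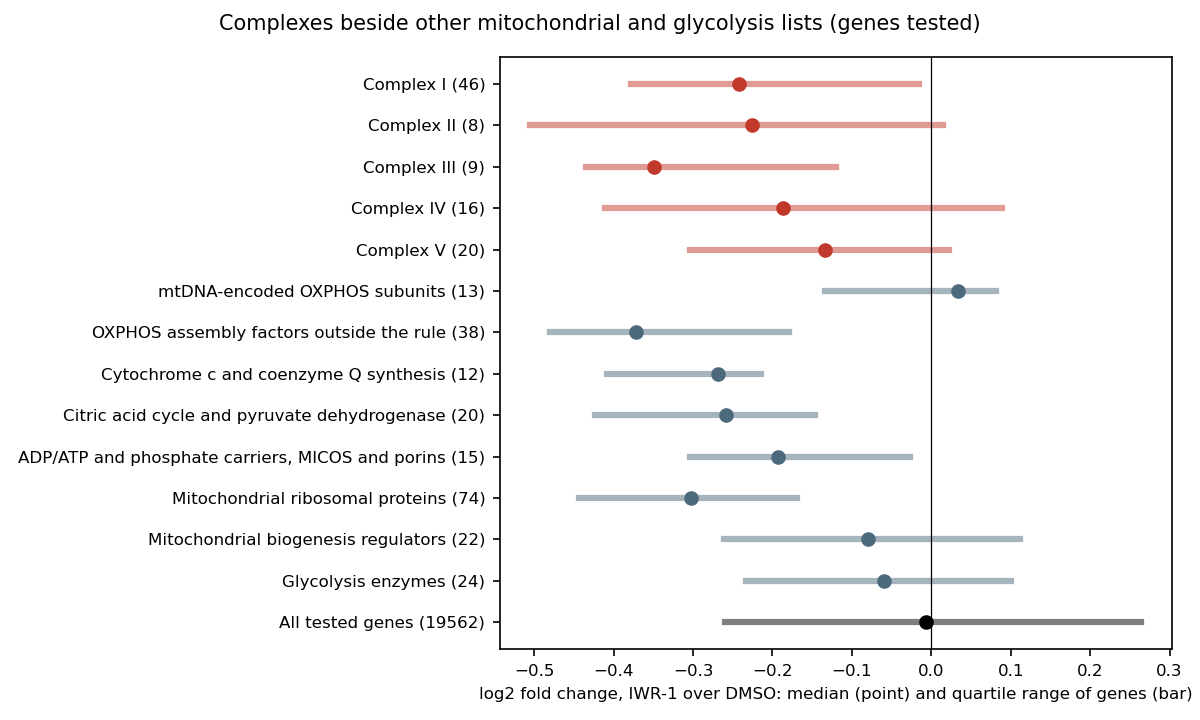
Median log2 fold change, IWR-1 over DMSO (points), and range between the quartiles (bars) for complexes I to V in red, for other mitochondrial lists and glycolysis in grey-blue, and for all 19562 tested genes in black, with the number of tested genes in brackets. The 5 complexes lie between -0.35 and -0.13, assembly factors outside the name rule at -0.37, and subunits encoded by mitochondrial DNA at 0.03.

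Markers of several cell types in the dissected tissue differed between the groups too. Of all tested genes, edgeR called 3.59% lower and 3.88% higher. Sarcomere genes of muscle had 18 of 37 tested genes below 0 and a median of 0.01, with 1 called lower (actc1a) and 1 higher (myhz1.2). The sum of these genes ran from 183992 to 219464 CPM in IWR-1 and from 177653 to 187958 CPM in DMSO. Epidermis markers were called lower for 5 of 11 (summed 3233 to 4825 CPM in IWR-1, 5495 to 6724 CPM in DMSO), fibroblast markers for 4 of 10 (14187 to 17594 CPM and 19582 to 21685 CPM) and notochord markers for 2 of 8 (1738 to 3054 CPM and 2584 to 3159 CPM). Macrophage markers were called higher for 3 of 11 (306 to 488 CPM in IWR-1, 225 to 283 CPM in DMSO), ionocyte markers for 3 of 13 (581 to 636 CPM and 554 to 620 CPM) and red blood cell markers for 2 of 5 (70.9 to 84.7 CPM and 34.4 to 39.7 CPM). The pigment cell gene pmela had 30.0, 35.7 and 40.1 CPM in IWR-1 libraries 1, 2 and 3, against 136, 110 and 129 CPM in DMSO libraries 1, 2 and 3, with every IWR-1 library below every DMSO library. For neurons 0 of 18 and for glia 0 of 8 were called with edgeR (unadjusted p was below 0.05 for 3 and 1, and DESeq2 called 1 and 0). Defining markers of muscle (actc1b, myhz1.1), neurons (elavl3), glia (gfap), skin (krt4), notochord (col2a1a), fibroblasts (col1a1a), macrophages (mpeg1.1), ionocytes (foxi3a, foxi3b) and red blood cells (hbbe2) were above 0 in all 6 libraries. The part of the cell types in the lower levels of the nuclear oxidative phosphorylation genes was not tested.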

How the data were processed

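RNA from pooled trunk tissue was sequenced from directional, rRNA-depleted libraries made after extraction with a kit for fixed tissue, per the labels' protocols. Groups came from the sample titles, and count columns were matched through the deposited sample sheet. The dose of 35 µM is that of the treatment protocol, since the treatment label lacks the µ. Per the submitters' processing notes, the tools were STAR, featureCounts, cutadapt and FastQC and the build GRCz11; no version or strand setting is given in the sources read. The authors deposited raw counts per Ensembl gene, names and coordinates, and their own comparison. Per the file headers, that table gives log2 fold changes, p-values and adjusted p-values under DESeq2's column names; 869 adjusted p-values are empty.

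The deposited counts went into edgeR's robust quasi-likelihood test (edgeR 4.0.16, R 4.3.3) with TMM scaling and 3 libraries per group. The filterByExpr rule removed 2788 genes, and p-values were adjusted by Benjamini-Hochberg over the 19562 tested, with calls below 0.05. An SE is the log2 fold change over the root of its F statistic, and CPM are TMM-scaled. The common biological coefficient of variation was 17.0%, and p-values measure the spread between these pools. Lists are described by counts and medians, without a test of the list.

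Members and lists were chosen with earlier results of these data known. Genes described in full were those called, up to 12 with the smallest p among those called with the replicate block, the lowest and highest fold change of each complex at a mean CPM of at least 1, and a panel. Others named were chosen after their values were seen, and 1 gene of the panel is not reported here. Deviations from group means correlated at 0.293, 0.341 and 0.159 within replicate numbers 1, 2 and 3, all over 0.1. Every library matched its own number best (6 of 6), so the number was used as a block in an alternative fit. This pairing was read from the data; what a number shares is not stated in the labels. Other alternatives were RLE and upper-quartile scaling, no filter, CPM of at least 1 in 3 libraries, leaving out mitochondrial genes with the 10 most abundant ones, leaving out each library, DESeq2 1.42.0, limma 3.58.1 voom with sample weights, and an adjusted p below 0.1. The code was tested on simulated data.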

Additional observations from a re-analysis of the deposited data

How the results depend on the processing

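With edgeR 1462 genes were called in all, 2 members among them, both lower. The replicate block gave 3486 genes, 21 members lower and 3 higher, limma voom gave 4452 genes, 8 lower and 2 higher, and an adjusted p below 0.1 gave 2450 genes, 8 lower and 1 higher. DESeq2 gave 1818 genes, 5 members lower and 1 higher. Leaving out each library in turn gave 447 to 2117 genes, 0 to 4 members lower and 0 to 3 higher. No member was called lower without IWR-1 replicates 1 or 3 or DMSO replicate 1. Only sdhdb was called lower without IWR-1 replicate 2, and 4 members were called lower and 3 higher without DMSO replicate 3. The same 2 members, ndufaf7 and uqcrc1, and no others were called under RLE and upper-quartile scaling, both filters and without mitochondrial and the 10 most abundant genes. With each library left out in turn, the log2 fold change of uqcrb ran from -0.13 to 0.40 (-0.09 without DMSO replicate 1, -0.13 without DMSO replicate 2, 0.04 with all libraries). The median of complex V ran from -0.21 to 0.042 (0.042 without DMSO replicate 3, -0.13 with all libraries). The cause of these differences was not tested. Without 1 library a group rests on 2.

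Medians of complexes I to IV stayed below 0 under the alternatives run, but limma voom shrank all 5, to -0.07, -0.10, -0.10, -0.06 and -0.0012 for complexes I to V. The order of the complexes was not stable: complex I was below complex III without DMSO replicate 2 and complex II was with limma voom, and complex II was nearer to 0 than complex V without DMSO replicate 2 or IWR-1 replicate 3. Upper-quartile scaling moved the median of all genes to 0.03, and other scalings moved it less. Members on few counts, such as cox5b2, cox8b and cox6b1, had the widest errors among complex IV. Promoter motifs were not run, because no promoter sequences were used here.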

Other observations

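Among 21 heat shock and stress genes, edgeR called 3 lower in IWR-1 tissue, and all 3 encode mitochondrial chaperones. They are grouped here after their values were seen. Of these, hspd1 and hspe1, the partners of the mitochondrial folding chamber, had log2 fold changes of -0.79 ± 0.13 (SE, adjusted p 0.0051) and -0.74 ± 0.19 (SE, adjusted p 0.041). The import motor chaperone hspa9 had -0.72 ± 0.13 (SE, adjusted p 0.0099). Their levels were 106 ± 5.58 CPM in IWR-1 and 184 ± 10.6 CPM in DMSO for hspd1, 27.6 ± 4.73 CPM in IWR-1 and 46.2 ± 10.9 CPM in DMSO for hspe1, and 160 ± 5.97 CPM in IWR-1 and 264 ± 22.9 CPM in DMSO for hspa9 (SD, n = 3 each). The mitochondrial proteases of the same list, clpp and lonp1, had log2 fold changes of 0.08 ± 0.15 and -0.03 ± 0.14 (SE) and did not pass. The 5 called higher were the cytosolic genes hsp70.1, hsp70.2, hsp70.3 and hsp90aa1.2, and the early-response gene fosb, with log2 fold changes of 1.18 to 3.69. Shares over all tested genes were 3.59% called lower and 3.88% called higher.

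On the first principal component of the members' log2 CPM, which held 53.7% of their variance, IWR-1 libraries 1, 2 and 3 were at -2.53, -0.49 and -2.03, against 0.74, 4.02 and 0.28 for DMSO libraries 1, 2 and 3. DMSO library 2 stood apart from the other 5. Over the members, deviations from group means correlated at 0.522, 0.653 and 0.533 between libraries of number 1, 2 and 3, higher for each number than over all genes.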
